A study of Mus musculus with 8 samples.

Results

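The collagens, laminins and integrins are the chains of the extracellular matrix and of the receptors that hold cells to it. They were followed here in cells sorted from mouse hearts at E10.5, a stage of mid-gestation, of the minKGFP transgenic line, which carries GFP under the control of a bacterial artificial chromosome with the minK gene (Kcne1). The members were taken by gene name: every non-control probe of the array whose name begins as a collagen chain, a laminin chain or a numbered integrin alpha or beta chain. That name pattern took 157 of 41174 non-control probes and 78 of 27729 gene names. Of the 78 genes, 41 encode collagen chains (80 probes), 11 laminin chains (20 probes) and 21 integrin chains (46 probes). The remaining 5 genes, on 11 probes, only carry such a name and encode no chain, so they are described apart.

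Both groups came from the same transgenic hearts, which were dissociated with pancreatin and collagenase and sorted by the brightness of GFP. The 4 GFP-high samples are labelled as conduction system cells and the 4 GFP-low samples as chamber myocardium, and the labels call the samples of a group biological replicates. The sort used fluorescence alone, and the sources used here give neither the gates nor how many embryos went into a sample. Each sample of 5 ng of total RNA was amplified and hybridised to its own one-colour Agilent array. Replicates 1 and 2 of both groups lay on one slide and replicates 3 and 4 on another.

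Collagens form the fibrils and networks of the matrix, each molecule being a triple helix of chains in which glycine recurs at a fixed step. Laminins are heterotrimers of an alpha, a beta and a gamma chain and build the sheet of the basement membrane, which in the young heart lies around cardiomyocytes and beneath the endocardium and the epicardium. Integrins are pairs of an alpha and a beta chain that bind these ligands at the cell surface. The alpha chain largely sets the ligand, and the beta1 chain is shared by most of the receptors for collagen and laminin.

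Levels are log2 of the processed signal minus the 75th percentile of the same array, so that 0 is the level of that percentile. A difference is the mean of the 4 GFP-high arrays minus the mean of the 4 GFP-low arrays, given with its standard error from limma. Each gene stands with the probe of highest mean signal over the 8 arrays, and it was tested where the scanner software called that probe well above background on 4 or more arrays. Levels of different probes were not ranked against each other, because hybridisation differs between probes.

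The arrays gave 36.3% to 50.7% of non-control spots well above background and no saturated spot. Both Kcne1 probes were higher on all 4 GFP-high arrays than on any GFP-low array, with differences of 2.83 and 1.29 (exact two-sided permutation p = 0.0286 for each, the smallest that 4 arrays against 4 allow; limma adjusted p = 0.0311 and 0.225 over all probes). Over the 12875 genes tested the median difference was 0.16, so the middle of all genes was not at 0. With an adjusted p under 0.05, 18 genes were called, 9 higher and 9 lower. All 14 myocardial markers of the list used were well above background on all 8 arrays. Their differences were above 0 for 14 of 14, with a median of 0.34 and summed levels of 3730 to 5820 in GFP-high cells and 2620 to 4420 in GFP-low cells, in units of the 75th percentile, and none had an unadjusted p under 0.05. Neural crest and Schwann markers, tested for 5 of 9 genes, had differences above 0 for 5 of 5 and a median of 0.31, and erythroid markers, tested for 7 of 10, had a median of -0.03. The part of these markers in the values of the members was not tested.

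No collagen, laminin or integrin gene passed the test. Of 42 chains tested, 0 were called by limma at an adjusted p under 0.05, where the background over all genes was 0.14%. At an unadjusted p under 0.05 the count was 10 of 42, against a background of 14.3% of all genes, and by family it was 0 of 20 collagens, 4 of 8 laminins and 6 of 14 integrins. Of these 10 chains 8 were higher and 2 lower in GFP-high cells, against a background of 7.94% higher and 6.38% lower. Itga1, Itga2b, Itgb2 and Lamb3, among the higher ones, were each well above background on 1 GFP-low array and on 3 or 4 GFP-high arrays. They thus passed the detection filter mainly through the group where they were higher. With detection required on all 8 arrays, the counts at that p were 2 of 14 collagens, 5 of 6 laminins and 2 of 10 integrins. The same count over all genes was 1534 of 9016. The arrays of the groups did not overlap for 4 of the 42 chains, against a background of 8.95% of all genes. These chains were Col4a6, Itgb2 and Itga7, higher in GFP-high cells, and Lama4, lower. The families also lay differently around the middle of all genes. The median difference was 0.07 over the collagens, 0.55 over the laminins and 0.58 over the integrins. By slide the laminin median was 0.98 on slide 1 and 0.26 on slide 2. The integrin median was 0.52 and 0.70, the collagen median 0.24 and 0.11 and the median of all genes 0.27 and 0.06. Differences above 0 were seen in 13 of 20 collagens, 6 of 8 laminins and 12 of 14 integrins, against a background of 62.1% of all genes. With detection required on all 8 arrays, the median was 0.07 over the collagens, 0.44 over the laminins and 0.40 over the integrins. The median of all genes was then 0.18, and 6 of 14 collagens, 3 of 6 laminins and 8 of 10 integrins lay above it.

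**Figure D1:**
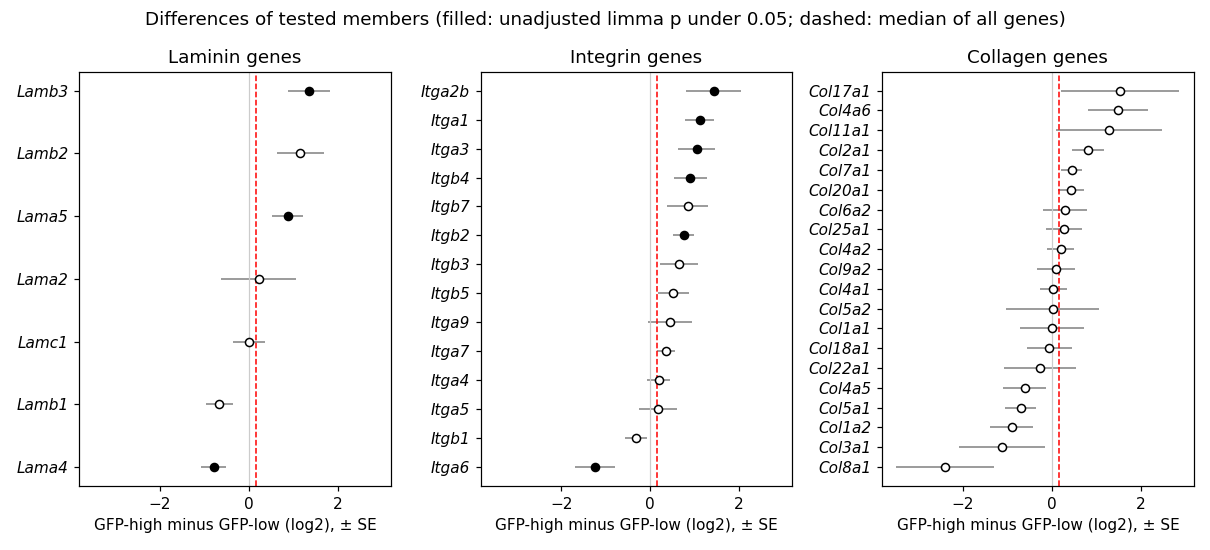
Difference between GFP-high and GFP-low cells (log2, x axis) for the tested laminin, integrin and collagen genes, 1 laminin left out, with bars of 1 standard error from limma. Filled points have an unadjusted p under 0.05, open points do not, none has an adjusted p under 0.05, and the dashed line is the median of all 12875 tested genes at 0.16.

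Laminin genes divided by chain. The alpha4 and beta1 chains had lower signal in GFP-high cells, with differences of -0.79 and -0.66. The alpha5, beta2 and beta3 chains had higher signal, with differences from 0.87 to 1.35. The gamma1 chain stayed near 0, while alpha2, at 0.22 ± 0.85, varied too widely between arrays to give a direction. Of 11 laminin genes 8 were tested. Lama1 was well above background on 2 of 8 arrays, and Lama3 and Lamc3 on none.

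Lama4 encodes the alpha4 chain, a laminin chain of endothelium and of muscle including the heart. Its levels were 2.72, 2.57, 3.37 and 2.27 on GFP-high arrays 1 to 4 and 3.57, 3.67, 3.44 and 3.44 on GFP-low arrays 1 to 4. The GFP-low arrays lay close together and all above the GFP-high arrays, of which replicate 3 came nearest. The difference was -0.79 ± 0.28 (limma p = 0.0206, adjusted p = 0.278; exact two-sided permutation p = 0.0286), a level 1.73-fold higher in GFP-low cells. It was -0.97 on slide 1 and -0.62 on slide 2. The gene had 3 tested probes, and the other two gave -0.98 and -0.65. The closest pair of these probes lies on chromosome 10 at chr10:38825032-38825822 and chr10:38825794-38825853 (mm9, plus strand). The first covers 791 bases of the genome with a probe of 60 bases, so it joins separate stretches, and both are open in 1 reading frame. They are shown because they overlap, so that their like values are not separate evidence; capitals mark the 29 bases that they share.
Lama4 upstream probe: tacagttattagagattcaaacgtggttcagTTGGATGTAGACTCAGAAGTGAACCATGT
Lama4 downstream probe: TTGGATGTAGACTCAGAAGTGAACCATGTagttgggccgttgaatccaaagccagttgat
The third probe, at chr10:38814803-38814862, shares no such stretch with them and had the smallest difference of the 3, with arrays that overlapped between groups.

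Lama5 encodes the alpha5 chain, the broadly used alpha chain of epithelial and vascular basement membranes. The levels were 2.73, 2.28, 2.07 and 1.75 in GFP-high cells and 2.01, 1.54, 0.89 and 0.89 in GFP-low cells, in the order of replicates 1 to 4. GFP-low replicate 1 was above GFP-high replicate 4, and no other arrays crossed. The difference was 0.87 ± 0.35 (limma p = 0.0343, adjusted p = 0.317; exact two-sided permutation p = 0.0571), with 0.73 on slide 1 and 1.02 on slide 2. Lama2, the alpha2 chain of the main laminin of mature muscle, had levels of -1.66, -0.03, -3.79 and -1.83 in GFP-high cells and -3.84, -1.38, -1.06 and -1.92 in GFP-low cells. Its groups overlapped widely, and its difference of 0.22 ± 0.85 was 1.76 on slide 1 and -1.32 on slide 2.

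Among the beta chains, Lamb1, the beta1 chain of early embryonic laminins, had levels of 3.03, 2.06, 2.69 and 2.02 in GFP-high cells and 3.38, 2.95, 3.15 and 2.97 in GFP-low cells. Only GFP-high replicate 1 reached into the range of the GFP-low arrays, and the difference was -0.66 ± 0.30 (limma p = 0.0537, adjusted p = 0.352; exact two-sided permutation p = 0.0857). Lamb2, a beta chain of muscle and vascular basement membranes, had levels of 0.94, 1.39, -0.20 and -0.47 in GFP-high cells and -0.76, 0.24, -1.41 and -1.05 in GFP-low cells. It was higher in GFP-high cells at each replicate number, yet the groups overlapped and the difference of 1.16 ± 0.52 did not reach an unadjusted p under 0.05 (limma p = 0.0531, adjusted p = 0.352; exact two-sided permutation p = 0.114).

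Lamb3 encodes the beta3 chain, which is joined to the alpha3 chain in the laminin of epithelial anchoring sites. Lamb3 stood at -1.62, -1.26, -1.43 and -3.31 in GFP-high cells and at -3.80, -3.00, -3.27 and -2.96 in GFP-low cells. Its probe was well above background on 3 GFP-high arrays and 1 GFP-low array, and GFP-high replicate 4 lay among the GFP-low arrays. The difference was 1.35 ± 0.47 (limma p = 0.0197, adjusted p = 0.274; exact two-sided permutation p = 0.114), and with values raised to a common floor it was 0.25. Lama3, the alpha chain of the same trimer, was well above background on no array.

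Lamc1, the gamma1 chain found in most laminins, had levels of 3.08, 2.77, 3.25 and 2.19 in GFP-high cells and 3.32, 2.06, 3.10 and 2.78 in GFP-low cells. The groups covered the same range, and the difference was 0.01 ± 0.36.

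**Figure D2:**
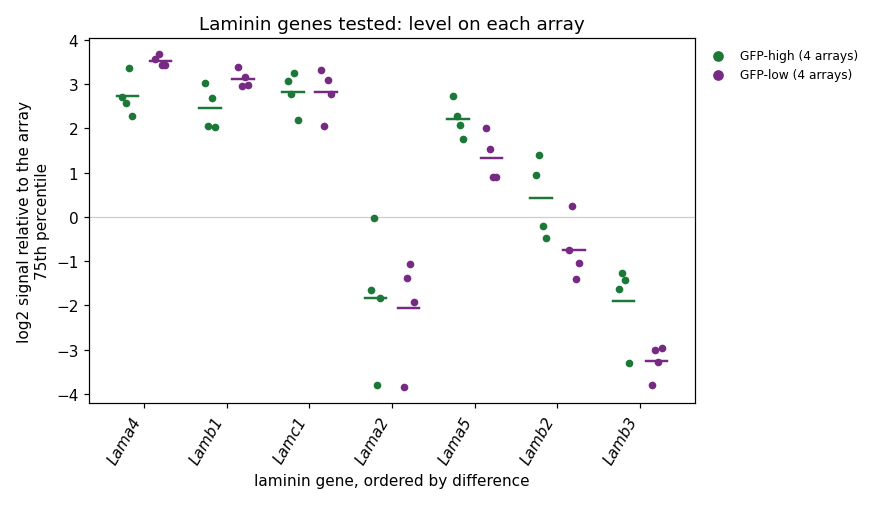
Level of the tested laminin genes, 1 left out, on every array (log2 relative to the array's 75th percentile, y axis), with genes ordered by difference on the x axis, points for arrays and short lines for group means. Lama4 is the gene whose GFP-low arrays all lie above its GFP-high arrays, and Lamc1 shows the same range in both groups.

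A trimer holds an alpha, a beta and a gamma chain, so chains of one class are alternatives to each other. The difference between chains of one class was therefore also followed within each array. The pairs were chosen after their levels were seen and are given with no test. Lama5 minus Lama4 ran from -1.31 to 0.01 on GFP-high arrays and from -2.55 to -1.56 on GFP-low arrays, a difference between groups of 1.67 that was 1.70 on slide 1 and 1.63 on slide 2. Lamb2 minus Lamb1 differed by 1.82 between groups, from -2.89 to -0.67 against -4.57 to -2.71, and these ranges overlapped. The scaling of an array cancels in such a pair. As the pairs were chosen for their levels, the values only describe these arrays, and they do not say which chain differed.

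The laminin count changed with single arrays and with the processing. The number of laminins at an unadjusted p under 0.05 was 4 with all arrays, 0 without GFP-high replicate 2 and 2 without GFP-low replicate 3. Within slide 2 alone it was 0. It was 6 with normexp background correction and 5 with quantile normalisation of the processed signal. Of all 12875 genes, 1843 were under that p with all arrays and 1355 without GFP-high replicate 2. The number was 1245 without GFP-low replicate 3 and 790 within slide 2.

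Epicardial markers are given beside Lama5 and Lamb3. All 7 of the 11 listed epicardial markers that were tested had differences above 0, against a background of 62.1% of all genes, with a median of 0.66. None of the 7 was called, 2 had an unadjusted p under 0.05, and their summed level was 27.3 to 41.0 in GFP-high and 17 to 25.8 in GFP-low, in units of the array's 75th percentile. The largest share of that sum came from keratins, and Upk3b, Upk1b, Msln and Bnc1 were well above background on no array. Their part in the laminin values was not tested. Endothelial markers, tested for 8 of 15 genes, had a median difference of 0.03 and summed levels of 5.55 to 7.90 and 4.62 to 8.36, with Pecam1, Tek and Eng on no array. In sorted bulk RNA, fewer cells of a type and less RNA per cell cannot be told apart.

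Integrin genes had higher signal in GFP-high cells for most chains, with Itga6 the main exception. Of 21 integrin genes 14 were tested, and 12 of these lay above the median of all genes. With detection required on all 8 arrays, 8 of 10 lay above the median of the genes then tested. The largest differences above 0 were those of Itga2b, Itga1, Itga3 and Itgb4, between 0.90 and 1.43. Itga6 had a difference of -1.25 and Itgb1 one of -0.32. Itga2, Itga10, Itgb2l and Itgb6 were well above background on no array, and Itga8, Itga11 and Itgb8 on 1 or 2.

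The laminin receptors have the alpha3, alpha6 and alpha7 chains, and these did not go the same way. Itga6 had levels of 1.07, 1.46, 2.98 and 2.26 in GFP-high cells and 3.32, 2.94, 3.81 and 2.72 in GFP-low cells. GFP-high replicate 3 reached into the GFP-low range and the other GFP-high arrays were below all GFP-low arrays. The difference was -1.25 ± 0.45 (limma p = 0.0233, adjusted p = 0.288; exact two-sided permutation p = 0.0857), a level 2.38-fold higher in GFP-low cells, with -1.86 on slide 1 and -0.64 on slide 2. A further Itga6 probe, at chr2:71694194-71694253 (mm9) beside the first at chr2:71695973-71696032, had levels of -0.38, -1.68, 0.29 and -0.55 in GFP-high cells and 0.79, 0.90, 0.54 and 0.91 in GFP-low cells. There the groups did not overlap, and the difference was -1.36 ± 0.41 (limma adjusted p = 0.242 over 18482 probes).

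Itga3 had levels of 0.81, 0.74, 0.51 and 0.39 in GFP-high cells and -0.90, -0.22, -1.24 and 0.65 in GFP-low cells. The GFP-high arrays were close together, and GFP-low replicate 4 was the one GFP-low array within their range. The difference was 1.04 ± 0.41 (limma p = 0.0328, adjusted p = 0.316; exact two-sided permutation p = 0.0857), and both further probes pointed the same way with 0.49 and 0.73. Itga7, the laminin receptor chain of muscle, had levels of -0.63, -0.61, -0.64 and -0.64 in GFP-high cells and -1.16, -0.94, -0.83 and -0.97 in GFP-low cells. The groups did not overlap, but the difference was small, 0.35 ± 0.20 (exact two-sided permutation p = 0.0286; limma p = 0.125, adjusted p = 0.454). Within each array, Itga7 minus Itga6 ran from -3.62 to -1.70 on GFP-high arrays and from -4.64 to -3.68 on GFP-low arrays, a pair chosen after its levels were seen.

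Itgb4, the partner of the alpha6 chain at epithelial anchoring sites, had levels of -1.32, -0.61, -1.99 and -1.41 in GFP-high cells and -1.69, -2.12, -2.90 and -2.21 in GFP-low cells. It was well above background on 3 arrays of each group, and the difference was 0.90 ± 0.37 (limma p = 0.0403, adjusted p = 0.330; exact two-sided permutation p = 0.0571). The gene had 3 probes, and the others were each well above background on 1 array and not tested. One of them, at chr11:115869547-115869606 (mm9), covers nearly the same bases as the probe used, at chr11:115869557-115869616. The epicardial marker values given for the laminins also stand beside Itga3 and Itgb4, and their part in these differences was not tested.

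Itga1, a receptor chain for collagen and laminin, had the smallest p of any member. Its levels were -1.33, -1.85, -1.27 and -2.07 in GFP-high cells and -2.90, -1.98, -3.09 and -2.97 in GFP-low cells. One crossing was seen, between GFP-low replicate 2 and GFP-high replicate 4. The difference was 1.11 ± 0.33 (limma p = 0.00953, adjusted p = 0.237; exact two-sided permutation p = 0.0571), with 0.85 on slide 1 and 1.36 on slide 2. The signal was dim: the probe was well above background on all 4 GFP-high arrays and on 1 GFP-low array. The gene had 3 probes, and the others, well above background on 1 and on 3 arrays, were not tested. The first of these had means of -4.22 in GFP-high and -3.70 in GFP-low cells, the second -3.13 and -3.31.

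The probes that stand for the alpha chains for fibronectin and related ligands differed little. Itga4, which binds fibronectin and VCAM1 and is needed for the epicardium to form, had levels of 0.22, 0.38, -0.27 and 0.14 in GFP-high cells and -0.37, 0.29, -0.19 and -0.01 in GFP-low cells, with a difference of 0.19 ± 0.26. Itga5, the fibronectin receptor chain, had levels of -0.12, 1.16, -0.02 and 0.64 in GFP-high cells and 0.23, -0.29, -0.23 and 1.22 in GFP-low cells, with a difference of 0.18 ± 0.43. Itga9, which binds tenascin and other ligands, had levels of -0.18, -1.47, -0.47 and 0.66 in GFP-high cells and -0.46, -1.51, -0.18 and -1.13 in GFP-low cells, with a difference of 0.45 ± 0.49. A further Itga9 probe, also well above background on all 8 arrays, gave 1.15 ± 0.7, so the size for Itga9 depended on the probe. In all 3 genes the groups overlapped. For the probes that stand for them, the differences were smaller than the spread between arrays of a group.

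Itgb1, the beta chain shared by the receptors for collagen, laminin and fibronectin, had levels of 3.88, 3.99, 4.11 and 4.31 in GFP-high cells and 4.43, 4.12, 4.77 and 4.25 in GFP-low cells. The groups overlapped and the difference was -0.32 ± 0.24. A further probe gave -0.54, while the third, which covers 5019 bases of the genome and is well above background on 4 of 8 arrays, gave 1.1. Its lowest value, -5.16 on GFP-low replicate 4, lay far under its other GFP-low values of -2.65, -2.61 and -1.84.

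Itgb3 and Itgb5 encode partners of the alphaV chain. Itgb3 had levels of 3.52, 3.27, 3.28 and 3.55 in GFP-high cells and 3.56, 2.27, 1.75 and 3.46 in GFP-low cells. The GFP-high arrays were close together while the GFP-low arrays made a higher and a lower pair, so that the difference of 0.64 ± 0.43 came from GFP-low replicates 2 and 3. The other Itgb3 probe gave 0.00. Itgb5 had levels of 0.65, 1.61, 0.55 and 0.70 in GFP-high cells and 0.94, 0.48, -0.22 and 0.24 in GFP-low cells, with a difference of 0.52 ± 0.35. The alphaV gene itself, Itgav, whose name falls outside the numbered pattern, had a difference of -0.06 ± 0.28.

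Itgb2, Itga2b and Itgb7 encode chains best known from blood cells, and none of them was called. Itgb2, the beta chain of leukocyte integrins, had levels of -2.25, -2.22, -2.66 and -2.20 in GFP-high cells and -3.27, -2.90, -3.08 and -3.08 in GFP-low cells. The groups did not overlap, with a difference of 0.75 ± 0.23 (limma p = 0.00967, adjusted p = 0.237; exact two-sided permutation p = 0.0286), but the probe was well above background on 3 GFP-high arrays and 1 GFP-low array. Itga2b, the alpha chain of platelets and megakaryocytes, had levels of -0.86, -2.38, -3.35 and -2.33 in GFP-high cells and -3.84, -3.06, -4.96 and -2.79 in GFP-low cells. Its groups overlapped, and the difference was 1.43 ± 0.62 (limma p = 0.0495, adjusted p = 0.349; exact two-sided permutation p = 0.0857). Itgb7, a partner of the alpha4 chain on leukocytes, had a difference of 0.84 ± 0.46 and was well above background on all 8 arrays.

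Beside these chains, 2 of 10 leukocyte markers were tested, with a median difference of 1.20 and summed levels of 10.6 to 15.2 in GFP-high cells and 3.44 to 5.43 in GFP-low cells, in units of the array's 75th percentile. The sum came mainly from Lyz2, a lysozyme gene of myeloid cells, at 3.56 and 2.10 in the group means. Ptprc, Csf1r, Fcgr1 and Spi1 were well above background on no array. The part of these markers in the values of Itgb2, Itgb7 and Itga2b was not tested. Itgal and Itgax, leukocyte alpha chains outside the numbered pattern, had differences of 0.08 and 0.05.

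The dim integrins depended on how low values were treated. With values under a common floor raised to it, the difference was 0.23 for Itga1, 0.00 for Itgb2, 0.23 for Itga2b and 0.47 for Itgb4. With normexp background correction and quantile normalisation the 4 genes gave 0.22, 0.30, 0.27 and 0.25. Under the same 2 alternatives Itga6 gave -1.25 and -1.25, and Itga3 gave 1.04 and 0.67. The number of integrins at an unadjusted p under 0.05 was 6 with all arrays and 3 without GFP-low replicate 1. It was 2 without GFP-high replicate 1, without GFP-high replicate 2 or without GFP-low replicate 3. Within slide 2 alone it was 0. Of all 12875 genes, 1843 were under that p with all arrays and 1696 without GFP-low replicate 1. The number was 1336 without GFP-high replicate 1, 1355 without GFP-high replicate 2, 1245 without GFP-low replicate 3 and 790 within slide 2.

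**Figure D3:**
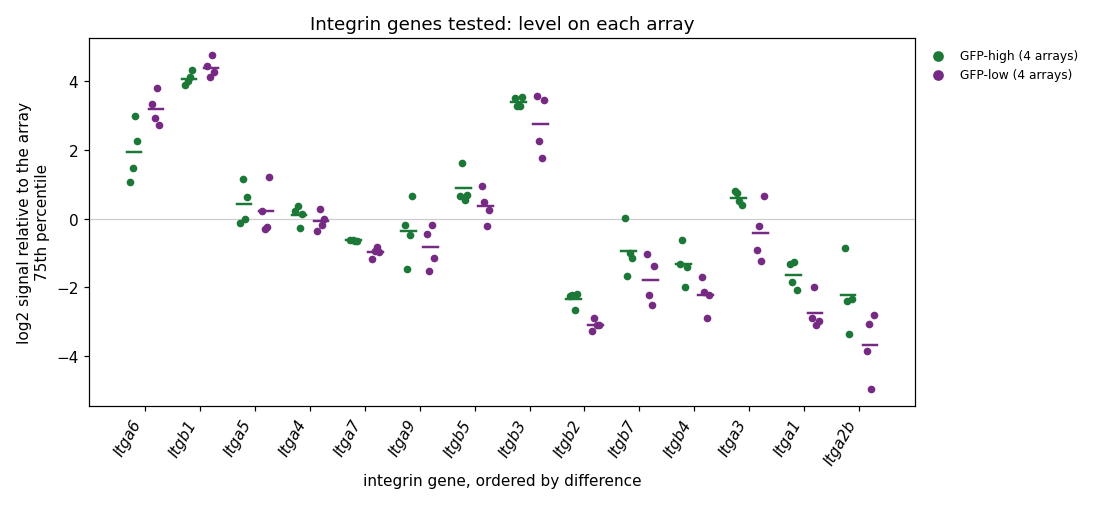
Level of each tested integrin gene on every array (log2 relative to the array's 75th percentile, y axis), with genes ordered by difference on the x axis, points for arrays and short lines for group means. Itgb2 and Itga7 are the genes without overlap between groups, and Itga6 has the lowest difference, -1.25.

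Collagen genes showed no common direction. Of 41 collagen genes 20 were tested, 9 of them above and 11 not above the median of all genes, and the median of 0.07 went to -0.02 when arrays were scaled on probes detected on all arrays. None of the 20 reached an unadjusted p under 0.05, but the spread between arrays was wide for several. The 21 collagens not tested included Col6a1, well above background on 3 arrays, and 8 that were on no array: Col4a3, Col4a4, Col5a3, Col6a3, Col15a1, Col19a1, Col24a1 and Col28a1. Without GFP-low replicate 2 the number at an unadjusted p under 0.05 was 4, without GFP-high replicate 3 it was 3 and without GFP-low replicate 4 it was 2. Leaving out GFP-low replicate 1, GFP-high replicate 2 or GFP-low replicate 3 gave 1 each. Of all 12875 genes, 1843 were under that p with all arrays and 1591 without GFP-low replicate 2. The number was 2578 without GFP-high replicate 3 and 1750 without GFP-low replicate 4.

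Among the chains of interstitial fibrils, those of collagens I, III and V, lower signal in GFP-high cells was seen in 3 of 5 genes. Col1a1 had levels of 0.06, -0.42, 0.45 and -2.22 in GFP-high cells and 1.09, -0.51, -1.47 and -1.27 in GFP-low cells, with a difference of 0.01 ± 0.72. Col1a2, the other chain of collagen I, had levels of 0.30, -0.34, 0.77 and 0.87 in GFP-high cells and 1.31, 0.03, 2.01 and 1.83 in GFP-low cells, with a difference of -0.90 ± 0.48 (limma p = 0.0971; exact two-sided permutation p = 0.143). Col1a2 was lower in GFP-high cells at each replicate number, and GFP-low replicate 2 was the only GFP-low array within the GFP-high range. Col3a1, of the fibrils of soft tissue, had levels of -0.88, -2.19, 0.19 and -1.43 in GFP-high cells and 2.44, -2.41, 0.58 and -0.46 in GFP-low cells. Its GFP-low arrays ran over more than the whole GFP-high range, and the difference was -1.12 ± 0.97.

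Col5a1 and Col5a2 encode chains of collagen V, which starts and limits the growth of collagen I fibrils. Col5a1 had levels of 3.61, 2.99, 3.72 and 3.20 in GFP-high cells and 4.50, 3.56, 3.56 and 4.71 in GFP-low cells, with a difference of -0.70 ± 0.35 (limma p = 0.0788; exact two-sided permutation p = 0.171). Col5a2 had levels of -2.39, -5.34, -2.65 and -0.81 in GFP-high cells and -2.88, -2.96, -0.78 and -4.64 in GFP-low cells, with a difference of 0.02 ± 1.05. It was well above background on 2 arrays of each group, and its order between arrays followed neither group. A further Col5a1 probe, at chr2:27842243-27844666 against chr2:27892892-27892951 for the first (mm9, plus strand), had levels of 2.20, 2.27, 1.64 and 2.06 in GFP-high cells and 1.69, 2.01, 1.41 and 2.02 in GFP-low cells. This probe gave 0.26 ± 0.27, the opposite sign, so the direction for Col5a1 depended on the probe. Its sequence is shown because it reads as the triple helix itself: the capitals are glycine codons (GGN), which stand at every 9th base, 6 in all.
Col5a1 helix probe: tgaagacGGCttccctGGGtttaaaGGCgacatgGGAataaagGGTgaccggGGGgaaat

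Col2a1, best known as the fibrillar collagen of cartilage, was well above background on all 8 arrays. It had levels of 8.15, 7.92, 7.17 and 8.00 in GFP-high cells and 7.21, 6.83, 6.28 and 7.66 in GFP-low cells. At each replicate number the GFP-high array was the higher, but the groups overlapped and the difference was 0.81 ± 0.36 (limma p = 0.0540, adjusted p = 0.353; exact two-sided permutation p = 0.0857). The other tested Col2a1 probe had levels of 7.69, 7.45, 6.63 and 7.49 in GFP-high cells and 6.79, 6.44, 5.87 and 7.20 in GFP-low cells, a difference of 0.74. The probes are printed because they read nearly the same stretch of the gene, chr15:97806505-97806564 and chr15:97806485-97806544 (mm9, minus strand), and so are not independent; capitals mark the 40 bases that they share.
Col2a1 first probe: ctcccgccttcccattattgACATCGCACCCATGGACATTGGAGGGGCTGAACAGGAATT
Col2a1 second probe: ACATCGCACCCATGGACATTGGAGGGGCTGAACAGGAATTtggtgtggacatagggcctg
Over all 70 tested probes of the name pattern, these and the Lama4 pair were the 2 pairs of overlapping probes.

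Collagen IV makes the network of basement membranes, and its chains are encoded by pairs of neighbouring genes read in opposite directions. Col4a1 and Col4a2, the chains of most basement membranes, start 21 bases apart on chromosome 8, and Col4a5 and Col4a6 start 1343 bases apart on the X chromosome (GRCm38.p6, RefSeq promoter table). Col4a1 had levels of 5.05, 4.22, 4.30 and 4.31 in GFP-high cells and 4.75, 3.88, 4.58 and 4.50 in GFP-low cells, with a difference of 0.04 ± 0.30. Col4a2 had levels of 2.65, 2.23, 2.04 and 1.99 in GFP-high cells and 2.71, 1.97, 1.50 and 1.93 in GFP-low cells, with a difference of 0.20 ± 0.31. Both differences were smaller than their standard error, while a further probe of each gave 0.40 and 0.80.

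Col4a6 was the collagen without overlap between groups. It had levels of 2.67, 2.24, 3.14 and 2.36 in GFP-high cells and 2.07, 1.77, 1.66 and -1.08 in GFP-low cells, and GFP-low replicate 4 lay far below the rest. The difference was 1.49 ± 0.67 (exact two-sided permutation p = 0.0286; limma p = 0.0533, adjusted p = 0.352), with 0.53 on slide 1 and 2.46 on slide 2. Without GFP-low replicate 4 it was 0.77. Both further probes gave smaller differences, 1.01 and 0.78, with overlap between groups. Its neighbour Col4a5 had a difference of -0.61 ± 0.48. Within each array, Col4a6 minus Col4a5 ran from 1.91 to 3.11 on GFP-high arrays and from -0.96 to 1.33 on GFP-low arrays, and it differed by 1.67 on slide 1 and 2.53 on slide 2. For Col4a2 minus Col4a1 the ranges were -2.39 to -1.99 and -3.08 to -1.91, which overlapped. Of 12 such pairs computed over the 3 families, all chosen after the levels were seen, 5 did not overlap. Several pairs share a chain, and no share over pairs of other genes was computed, so this count has no background to be set against.

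The chains of collagens XVIII and VI had differences near 0. Col18a1, the source of endostatin, had levels of 0.73, 0.65, -0.26 and 0.81 in GFP-high cells and 1.05, -0.36, -0.26 and 1.70 in GFP-low cells, with a difference of -0.05 ± 0.51. Col6a2, a chain of the beaded filaments of collagen VI, had levels of 1.64, 0.93, -0.13 and 1.06 in GFP-high cells and 0.41, 1.33, -0.44 and 0.98 in GFP-low cells, with a difference of 0.30 ± 0.49. The groups overlapped in both genes, and for Col18a1 GFP-low replicates 1 and 4 were above every GFP-high array.

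Several of the widest collagen differences belonged to genes near background. Col8a1, a short-chain collagen of vessels and heart valves, had a difference of -2.39 ± 1.1 (limma p = 0.0600, adjusted p = 0.363; exact two-sided permutation p = 0.171), and passed the background call on 2 GFP-high arrays and all 4 GFP-low ones. It was -0.61 with normexp background correction and -0.65 with a common floor, where Col1a2 was lower, at -0.78 and -0.90. Col17a1, a membrane collagen of epithelial anchoring sites, had 1.54 ± 1.33, and Col11a1, a minor fibril chain of cartilage, 1.29 ± 1.20, each above background on 3 arrays of the GFP-high group and 2 of the GFP-low group. All 3 genes had standard errors above 1. The remaining tested collagens, Col7a1, Col9a2, Col20a1, Col22a1 and Col25a1, had differences between -0.27 and 0.45.

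**Figure D4:**
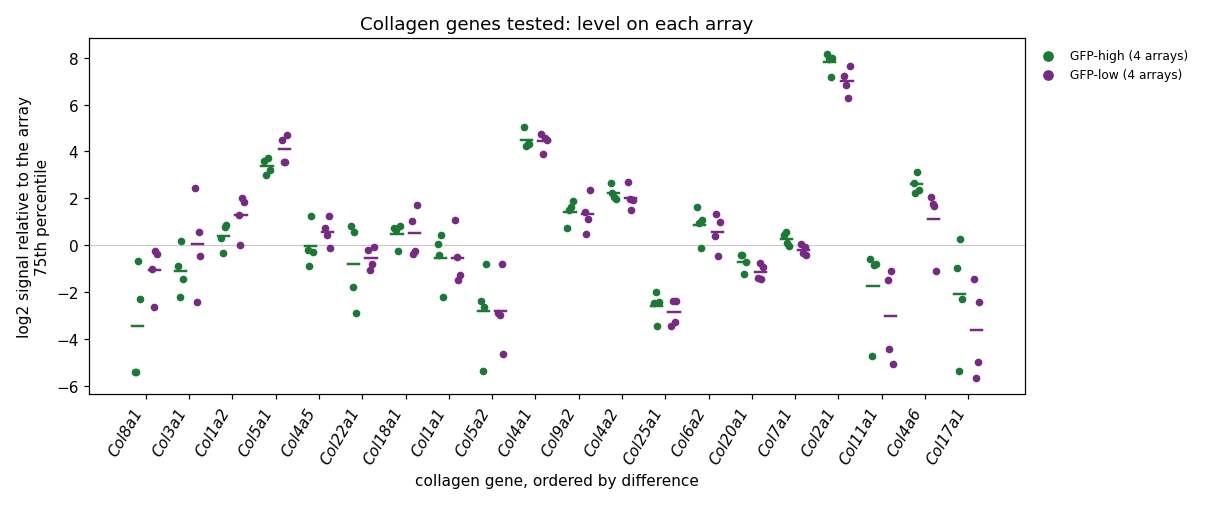
Level of each tested collagen gene on every array (log2 relative to the array's 75th percentile, y axis), with genes ordered by difference on the x axis, points for arrays and short lines for group means. Col4a6 is the gene without overlap between groups, and genes near background, such as Col8a1 and Col17a1, have the widest spread.

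Cushion mesenchyme and fibroblast markers, from cells that make fibrillar collagens, are given beside these genes. Of 16 such markers 5 were tested and 0 were called, with a median difference of -0.01 and summed levels of 50.3 to 61.0 in GFP-high cells and 46.4 to 63.8 in GFP-low cells, in units of the array's 75th percentile. The sum came mainly from Vim and Fbln1, with differences of 0.04 ± 0.25 and -0.01 ± 0.27. Pdgfra and Pdgfrb, growth factor receptors of mesenchyme, had -0.77 ± 0.65 and -0.94 ± 0.92, and Tcf21, the remaining tested marker, had 0.18 ± 0.32. Their signal was dim: Pdgfra and Pdgfrb each passed the background call on 2 GFP-high arrays and 3 GFP-low ones, Tcf21 on 3 and 1. Col1a2, Col3a1 and the probe that stands for Col5a1 were also below 0, while the other Col5a1 probe gave 0.26. The part of these markers in the collagen values was not tested. Snai1, Snai2 and Meox1 were well above background on no array. Smooth muscle markers, tested for 7 of 8 genes, had a median difference of 0.10.

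Different probes of a gene gave the same sign for 12 of the 15 chains that had more than 1 tested probe. The exceptions were Col18a1, Col5a1 and Itgb1. Over the 62 tested probes of the 3 families none had an adjusted p under 0.05, against a background of 0.0379% of all probes.

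**Figure D5:**
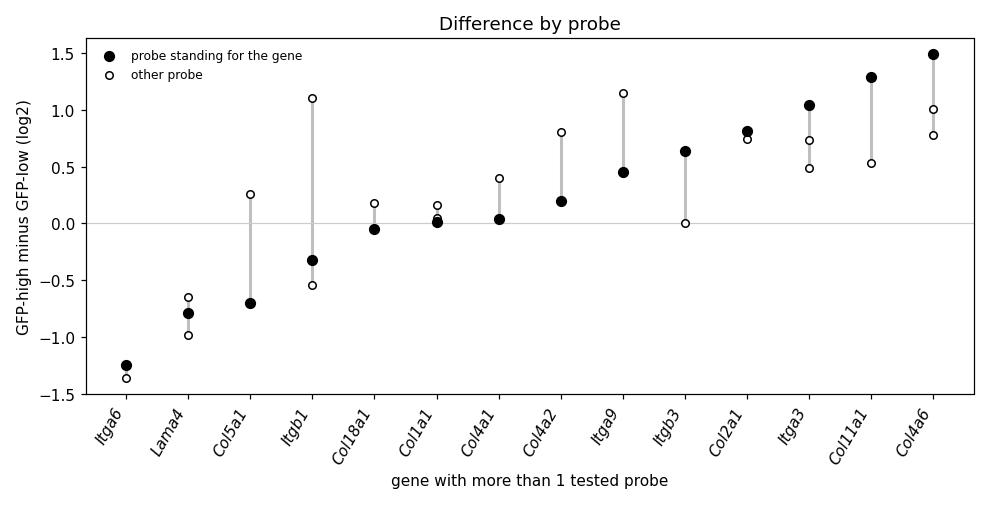
Difference between GFP-high and GFP-low cells (log2, y axis) for every tested probe of the genes with more than 1, 1 laminin left out, ordered on the x axis by the probe that stands for the gene (filled), with open points for other probes. The 3 Lama4 probes and the 2 Itga6 probes all lie below 0, while those of Itgb1 and Col5a1 lie on both sides of 0.

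The genes that make, bind or cut these molecules were followed in lists that hold no member. Over all genes 0.14% were called, and 7.94% were higher and 6.38% lower at an unadjusted p under 0.05. Of 28 genes of collagen biosynthesis and crosslinking 22 were tested and 0 were called, with 2 higher and 2 lower at an unadjusted p under 0.05. The smallest p belonged to Plod2, a lysyl hydroxylase that prepares collagen for crosslinking, with -3.10 ± 0.58 (limma adjusted p = 0.112), and to P3h2, a prolyl hydroxylase, with -1.22 ± 0.36 (adjusted p = 0.232). Plod2 was well above background on 1 GFP-high array and on all 4 GFP-low arrays. The median of the list was 0.05.

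Of 16 other basement membrane and laminin-binding genes 13 were tested, and 1 was called, Smoc2, a calcium-binding matrix protein of basement membranes. Smoc2 was well above background on no GFP-high array and on all 4 GFP-low arrays, so it passed the detection filter through GFP-low cells alone. Its processed signal, as scaled here, was at least 3.22-fold lower in GFP-high cells (measured means -4.51 and -0.92, limma adjusted p = 0.0493). The call held in 3 of the 22 alternatives that could test it, with limma adjusted p from 0.0371 to 0.577 and differences from -4.54 to -0.65. Among the 3 is the series-wide table, which holds the same intensities and so repeats the main fit. The others were quantile normalisation of the processed signal (limma adjusted p = 0.0371) and the mean over probes (limma adjusted p = 0.0404). The difference was -0.65 with normexp background correction and -0.84 with a common floor, both smaller in size than the bound of 1.69 on the log2 scale, which holds for the processed signal as scaled here. The bound sets the GFP-low mean against the lowest signal well above background on each GFP-high array. The median of the list was -0.05.

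Of 21 matrix ligands of integrins 13 were tested, and none had an unadjusted p under 0.05, the background being 14.3%. The smallest p belonged to Ccn2, a matricellular growth factor partner, with 0.48 ± 0.26, and Mfge8, a ligand of alphaV integrins, with 0.43 ± 0.23. Of 25 genes of the integrin adhesion complex 22 were tested and 0 were called, with 1 higher and 2 lower at an unadjusted p under 0.05. Actn1, an actin crosslinker, had -1.54 ± 0.40 (limma adjusted p = 0.192), and Tns1, a tensin of fibrillar adhesions, had 0.88 ± 0.28 (adjusted p = 0.251).

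Of 21 matrix proteases and inhibitors 14 were tested and 0 were called, with 5 higher and 1 lower at an unadjusted p under 0.05, against 7.94% and 6.38% of all genes, and a median of 0.38. Adamts15, a proteoglycan-cutting metalloprotease, had 2.14 ± 0.32 (limma adjusted p = 0.0694), and Timp4, a metalloprotease inhibitor of heart and brain, had 0.93 ± 0.21 (adjusted p = 0.157). Of the 7 integrin subunits outside the numbered pattern 3 were tested, and their differences lay between -0.06 and 0.08.

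The 5 genes that only share the names were all tested and 0 were called, with a median difference of -0.33. Nmrk2, listed as integrin beta1 binding protein 3 and a nicotinamide riboside kinase of muscle, had levels of 0.78, 1.08, -1.21 and -1.36 in GFP-high cells and -1.03, -1.15, -2.27 and -2.20 in GFP-low cells. Its arrays ordered by slide as well as by group, and the difference was 1.49 ± 0.64 (limma p = 0.0462, adjusted p = 0.343; exact two-sided permutation p = 0.171). Cert1, the ceramide transporter listed under a collagen IV name, had levels of 0.68, 0.98, 0.29 and 0.48 in GFP-high cells and 0.90, 1.53, 0.94 and 1.70 in GFP-low cells, with a difference of -0.66 ± 0.29 (limma p = 0.0498, adjusted p = 0.349; exact two-sided permutation p = 0.0857). Itgb1bp2, the muscle protein melusin that binds the beta1 tail, had 0.42 ± 0.28, Itgb1bp1 had -0.33 ± 0.39 and Itgb3bp had -1.12 ± 0.69.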

How the data were processed

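The scanner text files were made with Agilent Feature Extraction 10.5.1.1, per the submitters' processing notes. The deposited values are processed intensities on a linear scale, 1 array per sample, background-subtracted and detrended within the array with surrogates for the lowest values, per the file headers, which give mm9 as the build of the probe coordinates. The series-wide deposited table held the same intensities. Here log2 of each processed signal was taken, and the 75th percentile of all spots other than controls was subtracted for each array. The deposited flag for spots well above background set detection. Genes were named by the file, with old symbols updated from RefSeq. Groups were compared with limma 3.58.1 (lmFit, eBayes, Benjamini-Hochberg adjustment over all genes tested) in R 4.3.3, with group as the only term. Single values were also tested over all 70 assignments of arrays. The fit was tested on simulated data. Array number limits the precision. The members and lists were chosen with earlier results of these data known. Per-array values are given for members with an unadjusted p under 0.05 or without overlap, and for the main chains of heart matrix and receptors; of each list, the gene called or the 2 with the smallest p are named. Values per array for Col2a1 were added after its values were seen. The values of 1 laminin gene are not reported here; it stays in the counts and medians.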

Additional observations from a re-analysis of the deposited data

Results flagged for a closer look

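In 6 of 94 groups of 4 arrays, 1 array stood far from the other 3 by Dixon's criterion, which chance meets in about 1 group in 20. Col4a6 on GFP-low replicate 4 was -1.08 against 1.66 to 2.07 on the other GFP-low arrays, and Col11a1 on GFP-high replicate 2 was -4.72 against -0.86 to -0.57 on the other GFP-high arrays. Col4a1 on GFP-high replicate 1 was 5.05 against 4.22 to 4.31, and Col18a1 on GFP-high replicate 3 was -0.26 against 0.65 to 0.81. Itgb2 on GFP-high replicate 3 was -2.66 against -2.25 to -2.20, and Itgb5 on GFP-high replicate 2 was 1.61 against 0.55 to 0.70.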

How the results depend on the processing

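No chain was called under any of 23 alternatives, of which the series-wide table repeats the main fit. All genes called numbered 18, and 4 with scaling on probes detected on all arrays, 9 with quantile normalisation, 45 with a common floor, 3 with no filter on dim probes, 11 with a filter on all 8 arrays, 7 with every probe tested on its own, 11 with slide as a block, and 0 within slide 1 and within slide 2. With the replicate block 0 genes were called (smallest adjusted p 0.134): the labels do not say that equal numbers pair samples, the correlations of their deviations were 0.11, 0.15, 0.30 and 0.06, and each GFP-high array correlated best with its own number. Collagens at an unadjusted p under 0.05 numbered 4 with normexp, 3 with normexp and quantile, 1 with each of the other 2 scalings and with the mean over probes, 2 with the floor, with the filter on all 8 arrays and with slide as a block, 3 with no filter, within slide 1 and with trended robust variance, and 4 with the replicate block. Integrins numbered 2 with normexp and quantile and with the filter on all 8 arrays, 3 with the floor, within slide 1 and with trended robust variance, and 0 within slide 2; their median was 0.26 with normexp and quantile and 0.29 with the floor. Laminins numbered 0 within slide 2, and the laminin median was 0.29 with normexp and quantile and 0.22 with the floor. Leaving out 1 array at a time gave 0 to 7 genes called, 0 to 4 collagens, 0 to 4 laminins and 2 to 5 integrins. The number of all genes at an unadjusted p under 0.05 also moved. It was 1843 in the main fit, 790 within slide 2 and 2578 without GFP-high replicate 3. The causes were not tested. The sign of Lama4, Lama5, Itga3 and Itga6 held in all 23 alternatives, while Lamc1, Col1a1, Col4a1 and Col5a2 changed sign in some. The blocks, the trended robust variance, the filters, each probe on its own and the series-wide table leave these differences unchanged. Only the other alternatives could thus have changed a sign. The median of all genes ranged from 0.05 to 0.12 under the other scalings, so differences near it have no settled sign. Signal near background limits Itga1, Itgb2, Itga2b, Lamb3, Col8a1 and Col17a1.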
